A study of Mus musculus with 10 samples.

Results

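The miRNAs described here are 6 mature products of 5 mouse miRNA genes that are tied to fat cells: miR-103-3p, miR-107-3p, miR-107-5p, miR-148a-3p, miR-22-3p and miR-22-5p. They were taken by name from the 721 miRNAs listed in the 2 deposited tables, 679 for vesicles of brown adipose tissue (BAT) and 436 for plasma vesicles, and all 6 are listed in both. Small extracellular vesicles (sEV) are membrane particles that cells release and that carry RNA, and the series asked how exercise changes the miRNAs they hold. The 10 libraries, all from C57BL/6J mice, form 4 groups by title: Exe BAT (3 libraries), Sed BAT (3), Exe plasma (2) and Sed plasma (2). Every sample, Sed included, carries the label of 2 sessions a day, each of 90 min, over 4 weeks. From the titles, Exe is read as exercised and Sed as sedentary, while the series' design text speaks of states before and after exercise. No label says whether replicates come from different animals. The p-values therefore rest on the spread among libraries, and part of that spread may be technical.

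A miRNA gene makes a hairpin RNA whose 2 arms, 5p and 3p, can each give a mature miRNA, and usually one arm (the guide) is kept and the other (the passenger) is degraded. The mature miRNA finds its target mRNAs mainly through its seed, bases 2 to 8, and represses them. The near-identical miR-103 and miR-107 lie in introns of the pantothenate kinase genes, which make coenzyme A, and in obese mice they restrain insulin sensitivity in fat and liver through caveolin-1. Levels of miR-148a rise as human and mouse fat cells form, and in liver it represses the LDL receptor. In human stem cells taken from fat, miR-22 favours the bone over the fat lineage, and it is also abundant in heart muscle.

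The 6 mature sequences are shown because their seeds group the miRNAs and because 2 of them are nearly the same molecule. They were matched by name in RefSeq (GRCm38.p6), which held all 6, and run 5′ to 3′ with the seed in capitals.
miR-22-3p: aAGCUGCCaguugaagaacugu
miR-22-5p: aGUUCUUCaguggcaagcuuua
miR-103-3p: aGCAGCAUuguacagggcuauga
miR-107-3p: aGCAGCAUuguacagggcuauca
miR-107-5p: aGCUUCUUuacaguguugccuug
miR-148a-3p: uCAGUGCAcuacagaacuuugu

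The seed GCAGCAU is shared by miR-103-3p and miR-107-3p, which differ by 1 base of 23, G22C with positions counted from the 5′ end of miR-103-3p. A read that ends before base 22 cannot tell them apart, and how the authors assigned such reads is not given in the sources used here. Both are therefore reported as uncertain wherever one is set against the other. The letters AGCAGCA begin at base 1 in this pair and at base 2 in miR-15a-5p, miR-15b-5p, miR-16-5p, miR-195a-5p, miR-322-5p and miR-497a-5p, so their seeds share the 6 bases GCAGCA, shifted by 1 position, and differ in the remaining base. The seed of miR-148a-3p, CAGUGCA, is also that of miR-148b-3p and miR-152-3p. The seed of miR-107-5p, GCUUCUU, is that of the 5p arms of both miR-103 hairpins.

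In GRCm38 the miR-22 hairpin spans chr11:75463716-75463810 (plus strand) and overlaps exons of 2 transcripts of its host Mir22hg and 1 transcript of Tlcd2 in GENCODE M21. The hairpins for miR-103-3p lie at chr11:35782396-35782481 within Pank3 and at chr2:131288052-131288137 within Pank2, both on the plus strand, and give the same mature 3p sequence. The miR-107 hairpin is at chr19:34820687-34820773 (minus strand) within Pank1. Each of these 3 lies on the strand of its host and overlaps none of that host's annotated exons. The miR-148a hairpin, at chr6:51269812-51269910 (minus strand), has no host gene.

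The libraries held 116584 to 172279 miRNA reads in Exe BAT, 104064 to 169345 in Sed BAT, 1209116 and 1766070 in Exe plasma and 1341678 and 1798169 in Sed plasma. The label of the tissue was checked on 6 brown fat miRNAs: miR-193a-3p, miR-193b-3p, miR-365-3p, miR-378a-3p, miR-455-3p and miR-455-5p. All 6 had reads in every BAT library, and together they took 23.0% to 30.1% of miRNA reads in Exe BAT and 6.69% to 23.3% in Sed BAT, where the lowest value was that of replicate 2. Most of these reads were miR-378a-3p, and without it the other 5 took 2.27% to 2.96% in Exe BAT and 1.55% to 3.03% in Sed BAT, with replicate 2 highest. That library stood apart from the other BAT libraries. In plasma, 5 of these 6 are listed and took 0.0265% and 0.149% of reads in Exe and 0.157% and 0.501% in Sed. Levels below are given as CPM (read counts scaled to a common library size with TMM factors, which evens out composition between libraries), within each table unless the scaling over all 10 libraries is named. The mature miRNAs are 22 or 23 bases long, so levels were compared between them with no correction for length.

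In BAT vesicles the guide strand miR-22-3p was the second most abundant miRNA in all 6 libraries. It had 15297, 23446 and 24361 reads in Exe BAT, against 18041, 6422 and 16588 in Sed BAT. As a share of miRNA reads this was 13.1% (exact 95% binomial interval 12.9 to 13.3), 14.8% (14.6 to 14.9) and 14.1% (13.98 to 14.3) in Exe, and 10.7% (10.5 to 10.8), 6.17% (6.03 to 6.32) and 14.3% (14.1 to 14.5) in Sed. Such intervals cover counting error only. The 3 Exe libraries lay close together, while the Sed libraries spread over more than a factor of 2 and overlapped them, with replicate 2 lowest.

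The mean level of miR-22-3p was 146779 ± 11301 CPM in Exe BAT and 105192 ± 52357 CPM in Sed BAT (SD, n = 3 each). The log2 fold change of Exe over Sed was 0.48 ± 0.43 (SE), with an adjusted p of 0.431 in edgeR's quasi-likelihood test, so no change was called. Its passenger arm, miR-22-5p, had 15, 29 and 26 reads in Exe BAT and 26, 31 and 16 in Sed BAT. These groups overlapped, at 161 ± 28.9 CPM in Exe and 182 ± 45.8 CPM in Sed (SD, n = 3 each; -0.17 ± 0.31, edgeR adjusted p = 0.725).

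The only member called between the exercise groups was miR-148a-3p. It had 24, 45 and 37 reads in Exe BAT and 62, 131 and 47 in Sed BAT. On the CPM scale it was at 210, 293 and 234 in Exe, against 397, 987 and 429 in Sed, so the groups did not overlap, and Sed replicate 2 was the highest of the 6. It fell to a mean of 246 ± 42.8 CPM in Exe BAT, against 605 ± 332 CPM in Sed BAT (SD, n = 3 each). The log2 fold change was -1.29 ± 0.38 (SE, edgeR adjusted p = 0.036).

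The call of miR-148a-3p was lost without Sed replicate 2 and without any of the Exe replicates. Its value moved most without Sed replicate 2, and each such fit had fewer libraries in a group. Without Sed replicate 2 the value was -0.67 (edgeR adjusted p = 0.0953), and without Exe replicate 1, 2 or 3 it was -1.15, -1.42 and -1.15 (edgeR adjusted p = 0.132, 0.0545 and 0.131). The value lay below 0 in all 13 alternatives and passed the threshold in 6 of them. In Sed replicate 2, where miR-148a-3p was highest, the 2 endothelial miRNAs miR-126a-3p and miR-126a-5p together took 10.6% of reads, against 4.96% to 8.49% in the other BAT libraries. The brown fat miRNAs took 6.69%, low through miR-378a-3p, while miR-365-3p of the same list was highest there. The 5 muscle miRNAs took 5.59% there, against 2.51% to 3.56% in the other BAT libraries. Of these, miR-1a-3p took 3.08%, against 0.437% to 1.27% in the others, while miR-133a-3p, at 1.30%, lay within their range of 1.08% to 1.83%. None of the markers of these 3 lists was at 0 in any BAT library. Their part in the result was not tested. In vesicles, fewer particles from one cell type and less of a miRNA in each particle cannot be told apart.

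**Figure D1:**
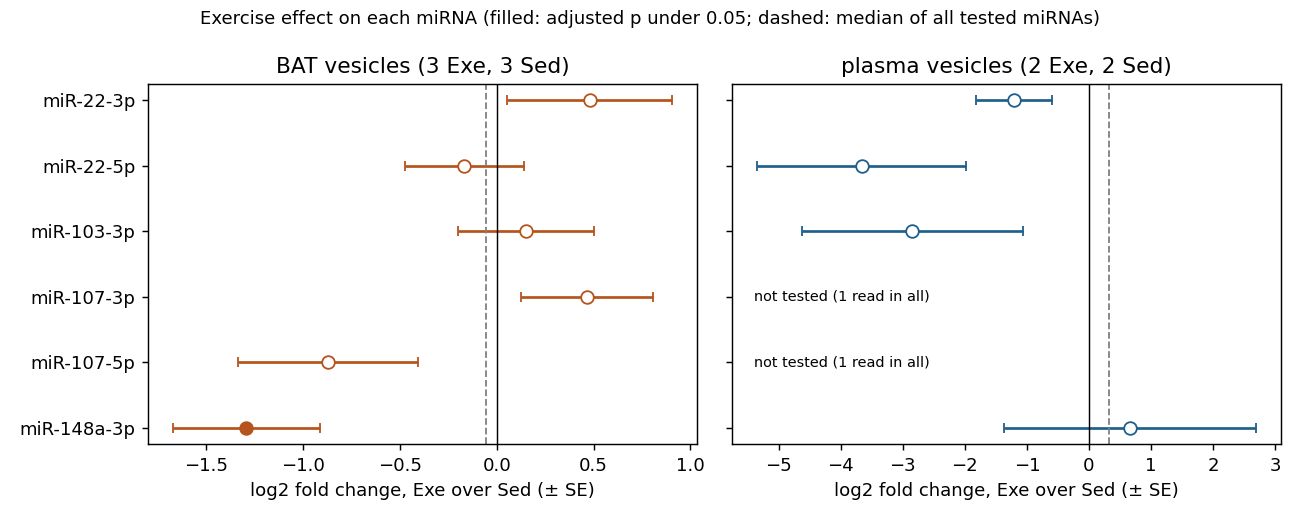
Log2 fold change of Exe over Sed (x axis, ± SE) for each of the 6 miRNAs in BAT vesicles (left, 3 libraries per group) and plasma vesicles (right, 2 per group); filled points passed an adjusted p of 0.05 and the dashed line is the median of all tested miRNAs. Only miR-148a-3p in BAT vesicles is filled, at -1.29, and the SE in plasma reaches 2.03, for miR-148a-3p.

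The insulin-related pair showed no call in BAT vesicles. For miR-103-3p there were 157, 95 and 88 reads in Exe BAT and 110, 104 and 87 in Sed BAT. Exe replicate 1 was the highest at 1373 CPM, while the other 2 Exe libraries, at 618 and 556 CPM, lay below the Sed libraries, which held 705 to 795 CPM. The means were 849 ± 455 CPM in Exe and 761 ± 49.0 CPM in Sed (SD, n = 3 each; log2 fold change 0.15 ± 0.35, edgeR adjusted p = 0.782), and without Exe replicate 1 the value turned to -0.31.

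For miR-107-3p there were 20, 34 and 21 reads in Exe BAT and 19, 22 and 10 in Sed BAT. The groups overlapped, at 176 ± 44.3 CPM in Exe and 126 ± 37.4 CPM in Sed (SD, n = 3 each; 0.47 ± 0.34, edgeR adjusted p = 0.331). Its 5p arm had 3, 7 and 13 reads in Exe BAT and 13, 18 and 8 in Sed BAT. The level of miR-107-5p was 51.3 ± 28.4 CPM in Exe and 97.4 ± 33.6 CPM in Sed (SD, n = 3 each; -0.87 ± 0.46, edgeR adjusted p = 0.186), and Exe replicate 3 lay within the Sed range.

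Of the 6 members 1 passed the threshold in BAT vesicles, beside 22.6% of all 199 miRNAs tested, and 1 had groups that did not overlap, beside 44.2% of all tested. The median log2 fold change was -0.01 over the 6 members and -0.06 over all 199. All 6 passed the filter on low counts in BAT.

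Ratios within a library do not depend on scaling, and 4 were tested. In BAT vesicles the reads of miR-107-3p outnumbered those of miR-107-5p by 6.67, 4.86 and 1.62 times in Exe, against 1.46, 1.22 and 1.25 times in Sed. All 3 Exe libraries lay above all 3 Sed libraries, with Exe replicate 3 close to them. The ratios of Exe replicates 1 and 2 rest on 3 and 7 reads of the 5p arm. The 3p counts also carry the doubt over reads that end before base 22, which miR-103-3p shares. The mean log2 ratio, with 0.5 added to each count, was 1.81 ± 0.999 in Exe and 0.37 ± 0.14 in Sed (SD, n = 3 each; difference 1.44, exact two-sided permutation p = 0.1, the smallest that 3 against 3 allows, and 0.4 adjusted over the 4 ratios).

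The strands of miR-22 were far less even. In BAT vesicles there were 1020, 808 and 937 reads of miR-22-3p for each read of miR-22-5p in Exe, against 694, 207 and 1037 in Sed. Sed replicate 2 stood below the other 5 libraries, and the groups overlapped (mean log2 ratio 9.81 ± 0.16 in Exe and 9.02 ± 1.2 in Sed, SD, n = 3 each, exact two-sided permutation p = 0.4, adjusted 0.4).

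The ratio of miR-103-3p to miR-107-3p was 7.85, 2.79 and 4.19 in Exe BAT and 5.79, 4.73 and 8.70 in Sed BAT. More miR-103-3p than miR-107-3p was therefore read in all 6 libraries, with overlapping groups (mean log2 ratio 2.15 ± 0.74 in Exe and 2.59 ± 0.43 in Sed, SD, n = 3 each, exact two-sided permutation p = 0.4, adjusted 0.4). Reads that end before base 22 could move counts between these 2 rows.

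**Figure D2:**
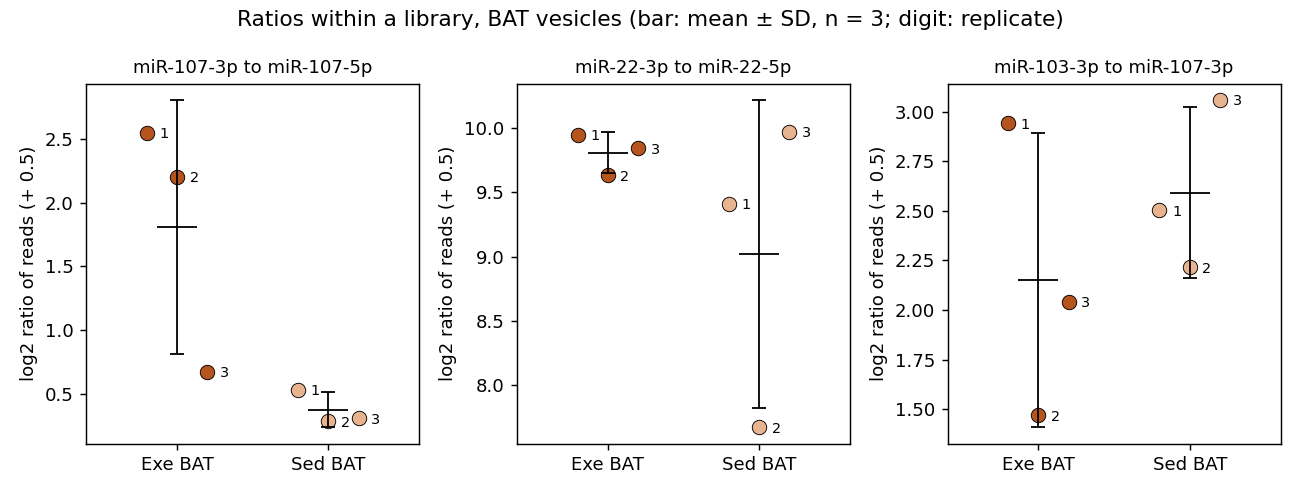
Log2 ratio of reads within each BAT library (y axis, 0.5 added to each count) for miR-107-3p to miR-107-5p, miR-22-3p to miR-22-5p and miR-103-3p to miR-107-3p; points are libraries with their replicate number, bars the mean ± SD (n = 3), and each panel has its own y range. For miR-107 the Exe libraries, at 0.67 to 2.55, lie above the Sed libraries, at 0.28 to 0.53, and in the other 2 panels the groups overlap.

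The other arms of these hairpins, which are not among the 6, were scarce in BAT vesicles. For miR-148a-5p there were 2, 3 and 2 reads in Exe BAT and 2, 3 and 1 in Sed BAT, and miR-103-1-5p and miR-103-2-5p had at most 1 read in any library. None of these 3 passed the filter on low counts.

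By seed, only 1 relative of miR-148a-3p was tested in BAT vesicles, and it did not fall. This was miR-152-3p, with a log2 fold change of 0.10 ± 0.28 (edgeR adjusted p = 0.786). The other, miR-148b-3p, did not pass the filter on low counts. It was at 30.8 ± 21.7 CPM in Exe BAT and 58.2 ± 28.2 CPM in Sed BAT (SD, n = 3 each), from 14 and 23 reads, with overlapping groups. Of the 7 relatives of miR-103 and miR-107, from miR-15a-5p to miR-503-5p, 6 were tested in BAT vesicles and 0 passed, with 1 value above 0 and 5 below and a median of -0.45. The values nearest the threshold were miR-497a-5p at -0.77 ± 0.26 (edgeR adjusted p = 0.0547) and miR-15b-5p at 0.58 ± 0.23 (edgeR adjusted p = 0.101).

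Of 11 other miRNAs tied to fat cell formation, 10 were tested in BAT vesicles. The fall of miR-30e-5p (-0.94 ± 0.26, edgeR adjusted p = 0.0306) was the 1 call and 0 rose, with a median of -0.15. The 4 most abundant were miR-378a-3p (0.73), miR-143-3p (0.03), miR-26a-5p (-0.14) and miR-21a-5p (-0.40), none past the threshold.

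Profiles over the 6 BAT libraries were compared with those of 106 other miRNAs of at least 50 reads on average, by the root mean square difference of log2 CPM after centring each on its own mean. Most like miR-22-3p were miR-378b (0.18), miR-378a-5p (0.21) and miR-24-3p (0.22), where the median miRNA differed by 0.75. All 3 were, like miR-22-3p, lowest in Sed replicate 2. Most like miR-148a-3p were miR-365-3p (0.22), miR-1a-3p (0.27) and miR-30e-5p (0.28), with a median of 0.83, and each of these was highest in Sed replicate 2.

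For miR-103-3p the nearest profiles were miR-150-5p (0.26), miR-92a-3p (0.28) and miR-10a-5p (0.30), with a median of 0.66. These values describe 6 libraries that share depth and scaling, and carry no test. The 3 members with fewer than 50 reads on average were not compared in this way.

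In plasma vesicles the same question gave no call among the members. The level of miR-22-3p was 8171 and 7205 CPM in Exe plasma, from 14658 and 13464 reads, against 20479 and 15049 CPM in Sed plasma, from 17620 and 26564 reads. Both Exe libraries lay below both Sed libraries, and it ranked 23 and 23 among the miRNAs of the Exe libraries and 9 and 11 in Sed. The means were 7688 ± 684 CPM in Exe and 17764 ± 3840 CPM in Sed (SD, n = 2 each), with a log2 fold change of -1.21 ± 0.62 (SE, edgeR adjusted p = 0.231). Its size depended on the processing, from -2.10 to -0.49 over the alternatives that kept every library.

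The passenger miR-22-5p had 3 and 0 reads in Exe plasma and 11 and 18 in Sed plasma. Summed over the group and scaled, Sed exceeded Exe 13.5-fold (exact 95% counting interval 4.18 to 69.2, counting error only), and the edgeR adjusted p was 0.192. The ratio of miR-22-3p to miR-22-5p was 4886 in Exe replicate 1, where replicate 2 had no read of the 5p arm, against 1602 and 1476 in Sed. With 0.5 added to each count the log2 ratio differed by 2.84 (exact two-sided permutation p = 0.33, n = 2 each, the smallest that 2 against 2 allows, adjusted 0.4).

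For miR-103-3p there were 15 and 3 reads in Exe plasma and 26 and 75 in Sed plasma. The groups did not overlap at 8.36 and 1.61 CPM in Exe, against 30.2 and 42.5 CPM in Sed (log2 fold change -2.85 ± 1.78, edgeR adjusted p = 0.311). The reads of miR-148a-3p, at 25 and 422 in Exe plasma and 93 and 78 in Sed plasma, overlapped. Exe replicate 2 was the highest of the 4 libraries and Exe replicate 1 the lowest, so the value of 0.66 ± 2.03 (edgeR adjusted p = 0.816) turned to -1.88 without Exe replicate 2.

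For miR-107 there was 1 read of each arm in Sed replicate 2 and none in the other 3 plasma libraries. A count of 0 allows up to 3 reads, or 0.000248% and 0.000170% of miRNA reads in the Exe libraries and 0.000224% in Sed replicate 1, and neither arm was tested within plasma. Of the 4 members tested in plasma 0 passed, beside 0% of all 182 tested, where 60 of 182 had an unadjusted p under 0.05 and DESeq2 called 59 and limma-voom 40. Under both other tools 0 members were called too. The groups did not overlap for 3 of the 4, beside 59.3% of all tested. The median of the 4 was -2.03, beside 0.32 over all 182.

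The summed share of 5 red cell miRNAs differed between the plasma groups, through miR-451a. Together they took 12.5% and 14.0% of reads in Exe plasma and 70.0% and 52.8% in Sed plasma. Without miR-451a the other 4 ran the other way, at 1.43% and 0.897% in Exe and 0.166% and 0.00801% in Sed, and of the 4 tested 2 log2 fold changes lay above 0 and 2 below. None of the 5 was at 0 reads in Exe, against 3 and 2 in Sed. The 5 leukocyte miRNAs took 2.25% and 1.98% of reads in Exe plasma and 0.211% and 0.156% in Sed plasma, where 0 and 1 of them were at 0 reads in Exe, against 3 and 1 in Sed. The part of both lists in the plasma values was not tested. Of the 11 other fat cell miRNAs 9 were tested in plasma and 0 passed, with a median of -0.47, and of the 7 relatives of miR-103 and miR-107 6 were tested and 0 passed.

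To set the 4 groups side by side, levels were put on one scale over all 10 libraries and the 394 miRNAs listed in both tables. Here the source of the vesicles cannot be told apart from the table it came in or from a batch. On this scale miR-22-3p was at 84683 ± 5280 CPM in Exe BAT, 58913 ± 27800 in Sed BAT (SD, n = 3 each), 16464 ± 7487 in Exe plasma and 47106 ± 6934 in Sed plasma (SD, n = 2 each). From high to low the order was Exe BAT, Sed BAT, Sed plasma and Exe plasma. The first 2 overlapped, as did Sed BAT and Sed plasma, while the 2 plasma groups did not.

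Exe BAT exceeded Exe plasma for miR-22-3p by a log2 fold change of 2.36 ± 0.51 (SE, edgeR adjusted p = 0.00301). Sed BAT against Sed plasma gave 0.32 ± 0.46 (edgeR adjusted p = 0.578), and this value depended on scaling: with library size alone it was 2.91 (edgeR adjusted p = 0.000787). As plain shares of miRNA reads miR-22-3p took 1.21% and 0.762% in Exe plasma and 1.31% and 1.48% in Sed plasma, well below its shares in BAT.

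The other members except miR-148a-3p also had higher means in both BAT groups than in both plasma groups. Over all 234 miRNAs tested, the median log2 fold change of BAT over plasma was itself above 0, at 0.90 in Exe and 1.21 in Sed. For miR-103-3p the levels on this scale were 496 ± 285 CPM in Exe BAT, 434 ± 48.4 in Sed BAT (SD, n = 3 each), 12.4 ± 14.0 in Exe plasma and 105 ± 59.8 in Sed plasma (SD, n = 2 each). Exe BAT exceeded Exe plasma by 5.33 ± 1.22 on the log2 scale. Sed BAT against Sed plasma was at 2.05 ± 1.02, where the groups did not overlap, beside 68.4% of all miRNAs tested. The Sed value was 2.08 and 2.22 without Exe plasma replicate 1 or 2. Over all 10 libraries miR-103-3p passed the filter on low counts only through its BAT reads. These values are therefore given as a description, with no test. The 2 BAT groups overlapped and the 2 plasma groups did not.

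For miR-22-5p the means were 92.7 ± 12.4 CPM in Exe BAT, 105 ± 32.7 in Sed BAT (SD, n = 3 each), 2.23 ± 3.15 in Exe plasma and 30.8 ± 6.29 in Sed plasma (SD, n = 2 each). Exe BAT held 59.1 times the level of Exe plasma, from 70 and 3 reads (exact 95% counting interval 19.4 to 294). Sed BAT against Sed plasma was at 1.75 ± 1.12 on the log2 scale, and at 1.77 and 1.86 without Exe plasma replicate 1 or 2. This miRNA too passed the filter on low counts only through its BAT reads, so these values carry no test.

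Both arms of miR-107 were almost confined to the BAT libraries. Against a floor of 3 reads over the group, miR-107-3p was at least 63.4-fold higher in Exe BAT, with 75 reads, than in Exe plasma, with 0, and miR-107-5p at least 19.4-fold higher, with 23 reads against 0. In Sed the ratios of BAT to plasma were 67.4 (exact 95% counting interval 11.6 to 2715) for miR-107-3p and 51.6 (8.73 to 2088) for miR-107-5p, against 1 plasma read each. Like miR-103-3p and miR-22-5p, both passed the filter on low counts only through their BAT reads, so these values are given as a description, with no test.

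No such order appeared for miR-148a-3p, at 141 ± 16.8 CPM in Exe BAT, 352 ± 216 in Sed BAT (SD, n = 3 each), 194 ± 221 in Exe plasma and 188 ± 49.5 in Sed plasma (SD, n = 2 each). Neighbours in the order Sed BAT, Exe plasma, Sed plasma and Exe BAT overlapped, Exe BAT and Sed plasma only at their ends, with ranges of 126 to 159 CPM in Exe BAT and 153 to 223 CPM in Sed plasma. BAT against plasma was at -0.46 ± 0.95 in Exe (edgeR adjusted p = 0.696), or 2.28 (edgeR adjusted p = 0.0439) without Exe plasma replicate 2, and 0.91 ± 0.98 in Sed (edgeR adjusted p = 0.463).

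Of the members, only miR-22-3p and miR-148a-3p reached the filter on low counts with their plasma reads too. In the Exe libraries miR-22-3p was called higher in BAT and miR-148a-3p was not. Beside them, 66.7% of all 234 miRNAs were called in either direction, 96 higher and 60 lower. In the Sed libraries neither was called by edgeR, beside 42.3% of all tested, or by DESeq2, and neither had an unadjusted p under 0.05. With library size alone both passed in Sed, and the median of all miRNAs then moved by 2.63 on the log2 scale.

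**Figure D3:**
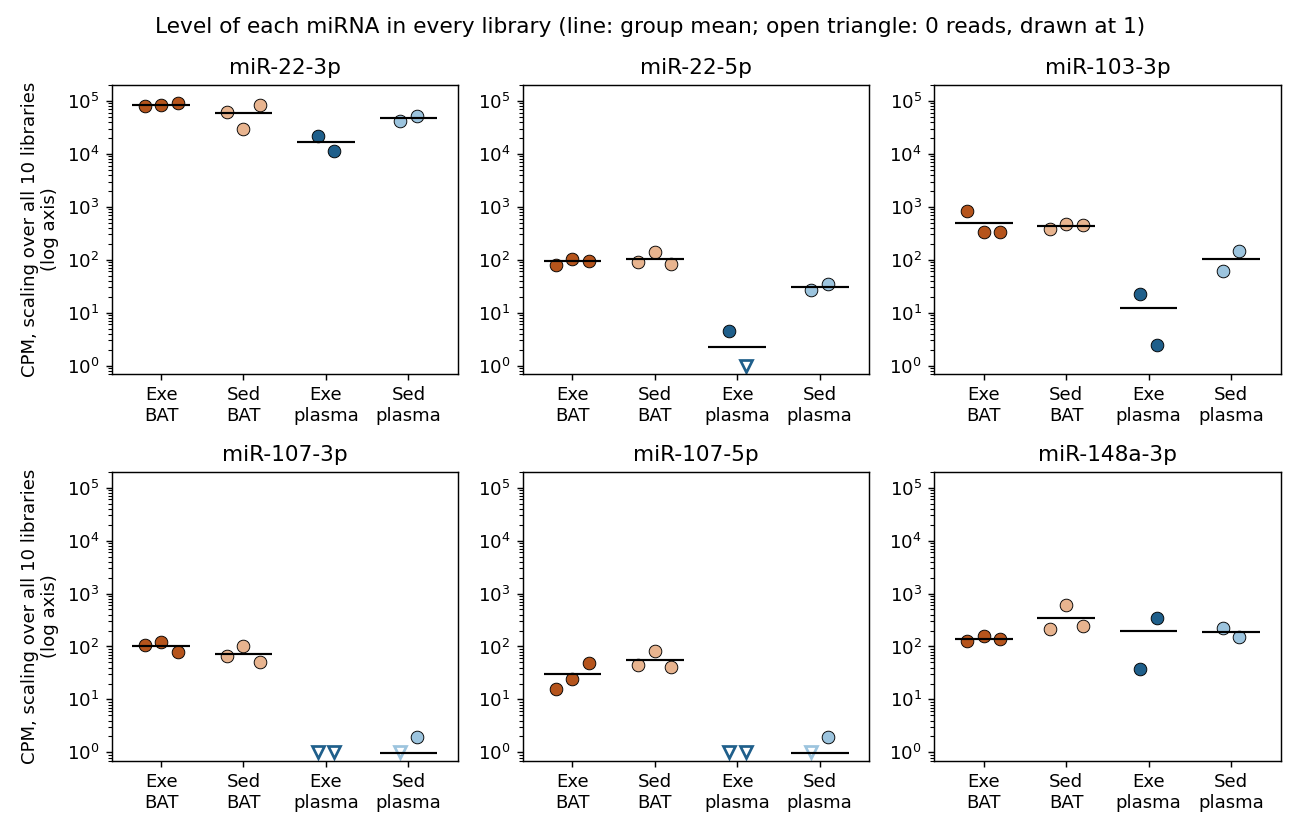
CPM on one scale over all 10 libraries (y axis, logarithmic) for each miRNA in the 4 groups; points are libraries, lines group means, and open triangles libraries with 0 reads, drawn at 1. Both arms of miR-107 have no read in the 2 Exe plasma libraries, and miR-22-3p is the most abundant member in every library.

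The exercise effect itself was compared between sources by an interaction term, the effect in BAT minus the effect in plasma. For miR-22-3p this difference was 2.04 ± 0.66 on the log2 scale (SE, edgeR adjusted p = 0.0408). With the arms of miR-107 set aside it was the 1 call among the members, beside 29.1% of all 234 tested. It passed in 6 of 18 alternatives and stayed above 0 in all 18. Without Sed BAT replicate 2 it was 1.35 (edgeR adjusted p = 0.0516), and with library size alone it was 0.94 (edgeR adjusted p = 0.209).

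The call for miR-22-3p was also lost when any of 6 other single libraries was left out: without Sed BAT replicate 1 (1.92), Exe BAT replicate 1 (2.04), 2 (1.85) or 3 (1.82), Sed plasma replicate 2 (1.85) or Exe plasma replicate 2 (1.87). For miR-148a-3p the difference was -1.36 ± 1.36 (edgeR adjusted p = 0.438). As a description, with no test, the differences were 3.28 ± 1.38 for miR-103-3p and 3.61 ± 1.59 for miR-22-5p. Without Exe plasma replicate 1 those of miR-103-3p and miR-22-5p were 5.43 and 6.46. Without Sed plasma replicate 1 that of miR-103-3p was 3.86. Each of these fits left 1 library in a plasma group. The plasma reads of miR-103-3p and miR-22-5p lay below the filter on low counts over all libraries, so their differences rest on few plasma reads. For miR-107-3p and miR-107-5p, with 1 plasma read each, plasma held no exercise effect to compare, and no value is given as a result.

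**Figure D4:**
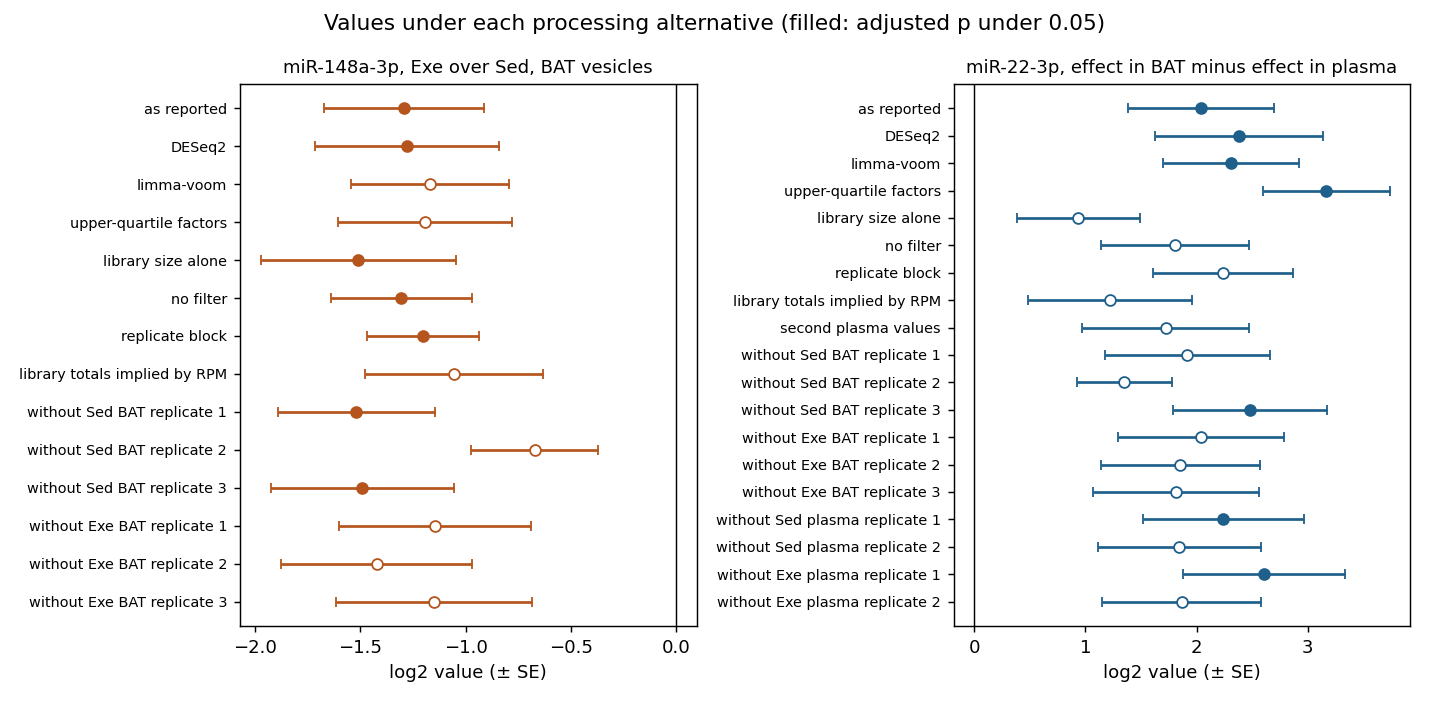
Log2 value (x axis, ± SE) under each processing alternative and with each library left out, for the exercise effect on miR-148a-3p in BAT vesicles (left) and for the effect on miR-22-3p in BAT minus that in plasma (right); filled points passed an adjusted p of 0.05. The left value moves closest to 0, to -0.67, without Sed BAT replicate 2, and the right value, to 0.94, with library size alone.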

How the data were processed

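Per the labels' protocols, miRNA was taken from the vesicles with Trizol and sequenced from standard Illumina libraries. The authors deposited read counts per mature miRNA and library in 1 table per vesicle source, per the file headers. Beside the counts, the deposited BAT table gives RPM, each count over 1 total per library that exceeds the sum of the table, and the plasma table as deposited holds a second whole number, of unstated making, that is never above the read count; this other value served as an alternative and in the closing section. Bowtie 0.12.2 and the builds mm8 and mm9 are named, with no role, in the submitters' processing notes; the sources used here do not give the counter or the trimming.

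Counts were tested with edgeR 4.0.16 (R 4.3.3; TMM, filterByExpr at a minimum count of 10, robust quasi-likelihood, Benjamini-Hochberg over all tested miRNAs, threshold 0.05), each table alone for Exe against Sed and all 10 libraries together for BAT against plasma and the interaction. The SE of a log2 fold change is its size over the square root of F. Library pairs of 1 group differed by more than sampling noise. Scripts were tested on simulated data. Ratios used exact permutation tests (scipy 1.17.1). Alternatives were DESeq2 1.42.0, limma-voom (limma 3.58.1), library size alone, upper-quartile factors, no filter, the replicate number as a block, RPM-implied totals, the second plasma values and leaving out each library. Members and lists were chosen with earlier results of these data known; the rule names all 6 members, the list members past the threshold and the 4 most abundant, and the 3 nearest profiles, and miR-497a-5p and miR-15b-5p were picked after their values were seen.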

Additional observations from a re-analysis of the deposited data

Results flagged for a closer look

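The effect of exercise on miR-22-3p differed between the sources by the interaction test, at 2.04 on the log2 scale (edgeR adjusted p = 0.0408): the value was 0.48 in BAT vesicles and -1.21 in plasma vesicles, each taken from its own table and neither past the threshold alone. This call held in only 6 of 18 alternatives, and the difference was 0.94 with library size alone. Of all 234 miRNAs, 29.1% were called in the same test.

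The second plasma values, which the comparisons above do not use, were higher in both Exe than in both Sed libraries for 2 members. For miR-22-3p they were 13063 and 12213 in Exe plasma, the lowest being 12213, against 11036 and 2047 in Sed plasma, the opposite order to its read counts. For miR-148a-3p they were 25 and 420 in Exe plasma, the lowest being 25, against 19 and 15 in Sed plasma. Over all miRNAs the second value came to 71.0% and 61.1% of the reads in Exe plasma and 30.2% and 4.67% in Sed plasma, so it moved with the library as a whole, and its part in these differences was not tested.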

How the results depend on the processing

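In BAT there was no sign of pairing by replicate number: same-numbered libraries deviated from their group means with correlations of 0.06, -0.21 and -0.19 across miRNAs. Deviations from a mean of 3 libraries are tied to each other, so this is weak evidence. In plasma the value was -0.08. There the 2 libraries of a group mirror each other about their mean, so it cannot show whether they were paired. With the replicate block the calls were 25 rather than 45 in BAT (miR-148a-3p kept its call at -1.2), 7 rather than 0 in plasma and 34 rather than 68 for the interaction, where 0 members were called. In BAT the members called were 0 with limma-voom, upper-quartile factors and RPM-implied totals, and 0 to 1 with 1 library left out, where all calls ran from 16 to 56. Calls split 26 higher and 20 lower with upper-quartile factors and 22 higher and 13 lower with RPM-implied totals, against 19 and 26 as reported, and these scalings moved the median of all miRNAs by 0.14 and 0.17. For miR-22-5p the value turned to 0.054 with RPM-implied totals and ran from -0.28 to 0.12 with 1 library left out, and that of miR-103-3p from -0.31 to 0.52. In plasma the calls were 59 with DESeq2, 40 with limma-voom, 4 with upper-quartile factors (median moved by -0.91), 10 with library size alone (0.63), 17 with no filter, 11 with the second values and 3 to 27 with 1 library left out, where a lone library is assumed to vary like the others, with 0 members in each. There miR-148a-3p turned to -0.27 with limma-voom, -0.23 with upper-quartile factors and -0.29 with the block, and ran from -1.88 to 1.70. For BAT against plasma in Sed, DESeq2 called 150 miRNAs and 4 members and library size alone 152 and 6 (both arms of miR-107 included, which passed the filter only through BAT), and with 1 library left out 77 to 149 and 2 to 4 were called, with miR-22-3p from -0.022 to 0.89. Like the arms of miR-107, miR-103-3p and miR-22-5p passed that filter only through their BAT reads. The 4 members called with DESeq2 in Sed were these 4, so their calls are counted here but carry no test. In Exe, miR-148a-3p turned to 0.14 with limma-voom, 0.37 with upper-quartile factors, 0.87 with library size alone and 0.080 with the block, and ran from -1.27 to 2.28. For the interaction, 3 members were called with DESeq2 and with upper-quartile factors, and 0 with library size alone, no filter, RPM-implied totals or the second values (44 calls in all), and 36 to 119 miRNAs and 0 to 3 members with 1 library left out, with miR-107-5p from -0.92 to 2.03 and miR-148a-3p from -2.19 to 1.33. The range of miR-107-5p does not measure an exercise effect, since plasma held 1 read of it in all, and its change of sign is not a result. Interaction calls of miR-103-3p and miR-22-5p carry no test, since their differences rest on few plasma reads. The causes of the shifts between settings were not tested. Over the interaction alternatives that kept every library, all calls ran from 34 to 102, against 68 as reported. These alternatives include DESeq2 and upper-quartile factors, and the share of all miRNAs called under each is not given here. The ratios kept their direction in every alternative, with exact p of 0.1 or more. RPM-implied totals were not run for BAT against plasma, since plasma totals of that kind were not used here. Counts were low for miR-107 and miR-22-5p, with at most 34 reads in any library, and for miR-103-3p in Exe plasma, with 15 and 3.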
